A study of Homo sapiens with 11 samples.

Results

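The genes described here are 40 genes of mitosis, the spindle and the kinetochore, out of 19775 genes measured on the arrays. They were chosen by name, and each gene was read from the probe set (a group of short probes for one transcript) that lists this gene alone and has the highest mean over all arrays. All 40 were measured. The cells were Reh, an established B-cell precursor leukaemia line with the ETV6-RUNX1 fusion, in which miR-125b had been stably expressed from a virus in every group. Lipofectamine was used to transfect these cells with precursor oligonucleotides 72 h apart, and they were harvested 48 h after the last transfection. The miR-99a group (3 arrays) received 66 µM of miR-99a precursor, the miR-100 group (3 arrays) received 66 µM of miR-100 precursor, and the group with both oligos (3 arrays) received 33 µM of each. The control group (2 arrays) received 66 µM of a scrambled precursor. The study asked how these microRNAs, alone and together, alter a leukaemia line whose resistance to vincristine was also measured. Vincristine is a drug that blocks spindle microtubules, and no drug treatment is given for the arrays. The labels number the arrays of each group from 1, the control group has no replicate 3, and nothing says that the replicates were separate cultures, so that p-values measure only the spread between these arrays, which may be technical.

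Mitosis separates the copied chromosomes. The kinetochore, a protein plate built on the centromere, binds spindle microtubules through the NDC80 complex, and kinesin motors move the chromosomes and order the microtubules. The spindle checkpoint holds the cell before anaphase until every kinetochore is attached, while the chromosomal passenger complex releases wrong attachments. CDK1 with its cyclins, the Aurora kinases and the Polo-like kinases drive the steps, and transcripts of most of these genes are made late in the cell cycle of dividing cells. In RNA from a whole culture, fewer cells in mitosis and less RNA per cell cannot be told apart.

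The mature microRNAs are shown because both transfected ones carry the same seed, the stretch that chiefly selects targets. The seed (bases 2 to 8) is in capitals, and the sequences are from RefSeq on build GRCh38.p14. miR-99a-5p (22 bases) lies at chr21:16539101-16539122 on the plus strand and miR-100-5p (22 bases) at chr11:122152275-122152296 on the minus strand. miR-125b-5p, present in every group, lies at chr11:122099809-122099830 on the minus strand (MIR125B1) and at chr21:16590253-16590274 on the plus strand (MIR125B2).
hsa-miR-99a-5p: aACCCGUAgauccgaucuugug
hsa-miR-100-5p: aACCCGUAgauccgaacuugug
hsa-miR-125b-5p: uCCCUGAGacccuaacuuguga
From miR-99a to miR-100 the only difference is U16A, counted from 1 at the 5′ end and outside the seed. The seed of miR-125b is another one.

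The upstream promoter sequences of 5 of the 40 genes are shown because their transcripts stood highest or lowest in the replicate 3 arrays described later. Promoters of late cell-cycle genes are known for the CCAAT box, bound by NF-Y, and for the CHR element (TTTGAA, in some genes written as TTCGAA), bound by the DREAM and MuvB complexes. The 250 bases before each RefSeq start on build GRCh38.p14 are printed, and the capitals mark these motifs, searched on both strands. CENPE lies at chr4:103198344-103198593 on the minus strand, ASPM at chr1:197146670-197146919 on the minus strand, CENPF at chr1:214602945-214603194 on the plus strand, DLGAP5 at chr14:55191586-55191835 on the minus strand and SPC25 at chr2:168890431-168890680 on the minus strand.
CENPE: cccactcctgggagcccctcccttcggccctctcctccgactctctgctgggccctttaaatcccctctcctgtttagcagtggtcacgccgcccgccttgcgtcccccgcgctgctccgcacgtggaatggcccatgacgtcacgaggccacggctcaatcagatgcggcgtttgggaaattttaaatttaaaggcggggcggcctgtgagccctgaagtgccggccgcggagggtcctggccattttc
ASPM: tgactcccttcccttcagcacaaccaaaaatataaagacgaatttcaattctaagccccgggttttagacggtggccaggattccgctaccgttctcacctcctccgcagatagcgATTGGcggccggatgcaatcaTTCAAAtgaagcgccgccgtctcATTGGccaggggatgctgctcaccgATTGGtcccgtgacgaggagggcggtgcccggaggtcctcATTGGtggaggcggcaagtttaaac
CENPF: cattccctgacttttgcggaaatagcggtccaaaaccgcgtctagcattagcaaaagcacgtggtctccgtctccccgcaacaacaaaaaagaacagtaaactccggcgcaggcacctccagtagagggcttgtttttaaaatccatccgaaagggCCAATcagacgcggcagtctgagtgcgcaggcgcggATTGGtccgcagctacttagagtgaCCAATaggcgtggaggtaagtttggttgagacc
DLGAP5: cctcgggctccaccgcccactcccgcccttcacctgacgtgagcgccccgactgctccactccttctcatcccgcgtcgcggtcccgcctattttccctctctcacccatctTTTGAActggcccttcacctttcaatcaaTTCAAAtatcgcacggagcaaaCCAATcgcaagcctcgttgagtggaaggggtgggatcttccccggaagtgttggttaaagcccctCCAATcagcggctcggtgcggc
SPC25: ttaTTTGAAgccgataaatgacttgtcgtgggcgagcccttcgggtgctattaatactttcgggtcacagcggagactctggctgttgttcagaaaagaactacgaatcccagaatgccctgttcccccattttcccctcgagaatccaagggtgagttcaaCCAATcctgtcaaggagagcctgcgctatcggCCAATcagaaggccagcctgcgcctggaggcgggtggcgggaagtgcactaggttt
ASPM held 4 CCAAT boxes and 1 TTTGAA, CENPF 3 CCAAT boxes, DLGAP5 2 CCAAT boxes and 2 TTTGAA, and SPC25 2 CCAAT boxes and 1 TTTGAA. Neither motif is in the window printed for CENPE. A promoter was found in the RefSeq table for 35 of the 40 genes, in windows of 300 bases (250 before the start and 50 after it). CCAAT was in 26 of these 35 windows (74.3%), against 35.7% of all 27305 promoters of that length. TTTGAA was in 22 (62.9%), against 15.4% of all promoters, and TTCGAA was in 2 (5.71%), against 1.45%. By their letters the motifs can share at most 1 base at their ends. Genes on opposite sides of the replicate 3 comparison both had these letters: CCAAT was in all 6 promoters of the genes that fell and in 15 of the 23 promoters of those that rose. TTTGAA or TTCGAA was in 5 of the 6 and in 15 of the 23.

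The arrays gave deposited log2 values between 4.40 and 14.84, with array medians from 5.95 to 5.98 and correlations between arrays from 0.989 to 0.998. No array was a copy of another. Values below are log2, a difference of 1 being a doubling, and the level of a probe set does not rank its RNA against that of another. The label of the line was borne out by its markers: 8 of 9 measured B-lineage genes lay above the median gene (6.4), with DNTT at 13.09, IGLL1 at 12.24 and PAX5 at 11.65, whereas VPREB1 was at 5.48. None of 8 T and NK cell markers did (5.58 to 5.97), nor did most myeloid (3 of 8 did), erythroid (2 of 6) and fibroblast or epithelial markers (1 of 8). All 40 mitotic genes lay above the median gene, with means over the 11 arrays from 6.5 to 12.69.

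The treated arrays numbered 3 stood apart from the rest. In the 3 treated arrays with the number 3, 25 of the 40 genes rose and 6 fell against the 6 treated arrays numbered 1 and 2, by limma's moderated test with treatment as a term and Benjamini-Hochberg adjusted p under 0.05. Of all genes, 17.1% rose and 12.2% fell in this comparison. The test takes arrays as independent, although same-numbered treated arrays deviated together (correlations 0.17 to 0.82). If same-numbered arrays share a source, they count as a single unit, and the p-values by replicate number given below overstate the evidence. The median difference of the 40 genes was 0.32, against 0.001 over all genes. Genes of like level moved more often than all genes. Of the 25 mitotic genes with means from 8 to 10, 19 rose and 3 fell (median 0.38), against 42.2% and 22.1% of the other genes of that level (median 0.13). Of the 10 with means from 10 to 12, 5 rose and 3 fell (median 0.18), against 27.3% and 45.1% of the other genes of that level (median -0.096). The 6 falls are thus no larger a share than among genes of like level. Counts by role below stand beside the shares of all genes, which are lower than those of genes with means from 8 to 12. In 24 genes every replicate 3 array lay above all 6 of the others (background 14.9%), and in 5 genes every one lay below them (background 11%).

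**Figure D1:**
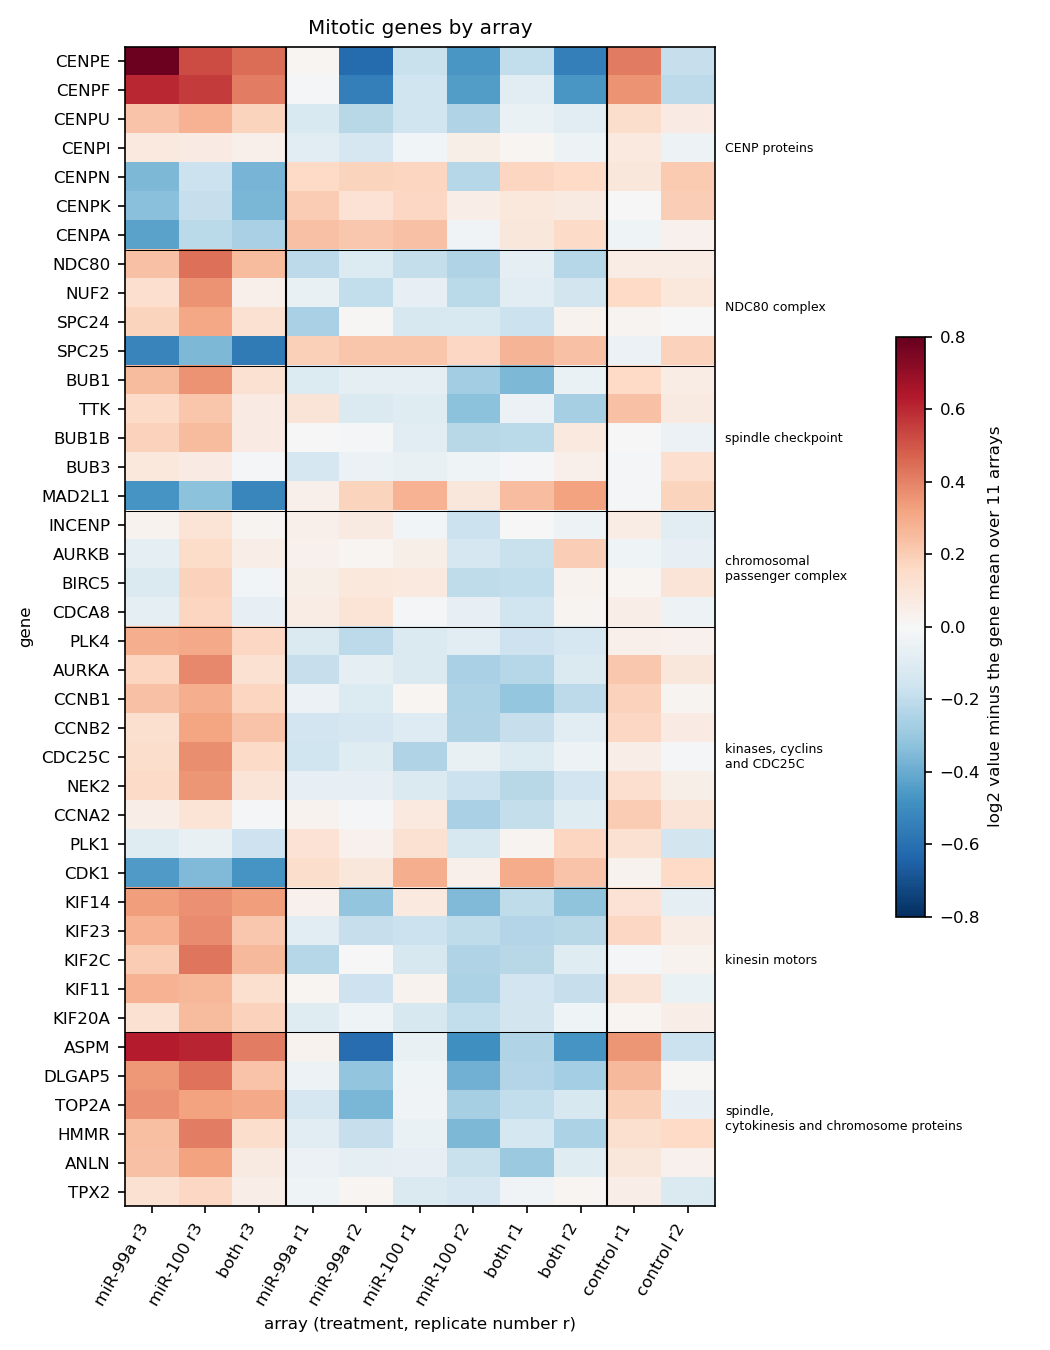
Deviation of each gene's log2 value from its own mean over the 11 arrays, by array (columns: treated replicate 3 arrays, treated replicates 1 and 2, control) and by role (rows). The 3 replicate 3 columns are red for most genes and blue for CENPA, CENPK, CENPN, SPC25, MAD2L1, CDK1 and PLK1, and the chromosomal passenger complex rows stay pale.

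A mean of control probe sets also separated the treated arrays numbered 3 from those numbered 1 and 2. The mean over 15 probe sets for bacterial transcripts of the maker's labelling controls was 7.59 to 8.20 in the replicate 3 arrays. It was 8.44 to 8.89 in treated replicates 1 and 2, without overlap. The control arrays numbered 1 and 2 were at 8.77 and 7.91, so that control array 2 lay within the replicate 3 range. Means of the 9 hybridisation control probe sets overlapped (9.89 to 10.57 in replicate 3, 10.24 to 10.72 in replicates 1 and 2). The 3′ minus 5′ difference of GAPDH, a measure of RNA and cDNA integrity, was 0.56 to 0.71 in replicate 3 and 0.53 to 0.63 in replicates 1 and 2, and that of ACTB was 2.52 to 2.85 and 2.45 to 3.17 in these arrays. Their part in the result was not tested. The summed level of the B-lineage markers (log2 of the sum of linear values) was 14.73 to 14.76 in replicate 3, within the 14.60 to 14.87 of replicates 1 and 2. Of the 9 markers summed, 1 was called higher and 2 lower in replicate 3 (background 17.1% and 12.2%).

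Among 7 CENP proteins of the kinetochore, 3 rose and 3 fell (background 17.1% and 12.2%). CENPE, the kinesin that carries chromosomes toward the spindle equator, was at 9.12, 8.86 and 8.78 in replicate 3 of miR-99a, miR-100 and both oligos. The 6 treated arrays of replicates 1 and 2 ranged from 7.72 through a median of 8.0 to 8.35, and the control arrays were at 8.75 and 8.15. The difference between replicate 3 and replicates 1 and 2 was 0.92 ± 0.09 (SE), 1.89-fold (adjusted p = 7.54e-12, limma), the largest of the 40. CENPF, a large coiled-coil protein that brings dynein and CENP-E to the kinetochore, was at 9.99, 9.95 and 9.80 in replicate 3, against 8.84 to 9.37 (median 9.08) in treated replicates 1 and 2 and 9.75 and 9.18 in control arrays. Its difference was 0.81 ± 0.08 (adjusted p = 5.11e-11, limma). In both genes the replicate 3 arrays lay above all others, and the control array numbered 1 came next. CENPU, a subunit of the inner kinetochore, was at 11.98, 12.03 and 11.93 in replicate 3, against 11.51 to 11.70 (median 11.61) in replicates 1 and 2 and 11.89 and 11.82 in control arrays, a difference of 0.38.

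CENPA, the histone H3 variant that marks the centromere, went the other way. It was at 8.04, 8.25 and 8.21 in replicate 3, against 8.44 to 8.70 (median 8.65) in treated replicates 1 and 2 and 8.43 and 8.50 in control arrays, so that replicate 3 fell by 0.45 on the log2 scale (SE 0.07, adjusted p = 9.99e-07, limma). The inner kinetochore subunits CENPK and CENPN fell by 0.41 and 0.40, also without overlap for CENPK. CENPN depended on the probe set: the one used lay at 9.88 to 10.08 in replicate 3 and 10.02 to 10.43 in replicates 1 and 2, whereas the next highest one lay at 8.77 to 8.82 and 8.30 to 8.46, a difference of 0.40 upward. With the mean of all 4 probe sets the CENPN difference was 0.04 (adjusted p = 0.725, limma). CENPI, of the same inner complex, had a difference of 0.10 that did not pass the test.

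The NDC80 complex binds microtubules with 4 subunits, and these did not move together: NDC80, NUF2 and SPC24 rose while SPC25 fell. NDC80 was at 9.92, 10.13 and 9.94 in replicate 3, against 9.45 to 9.61 (median 9.49) in treated replicates 1 and 2 and 9.75 in both control arrays, a difference of 0.49 ± 0.07 (SE; adjusted p = 9.82e-08, limma). NUF2, its partner at the microtubule end of the complex, was at 9.76, 9.99 and 9.67 in replicate 3, against 9.41 to 9.57 (median 9.51) in replicates 1 and 2 and 9.79 and 9.71 in control arrays, a difference of 0.31. SPC24, which pairs with SPC25 at the kinetochore end, also differed by 0.31. SPC25 was at 9.23, 9.40 and 9.19 in replicate 3, below every other array: replicates 1 and 2 lay at 9.92 to 10.03 (median 9.98) and the control arrays at 9.71 and 9.94. It fell by 0.70 on the log2 scale (SE 0.07, 1.63-fold, adjusted p = 6.02e-12, limma), the lowest difference of the 40. SPC24 and SPC25 thus lay on opposite sides of 0 by more than their standard errors.

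**Figure D2:**
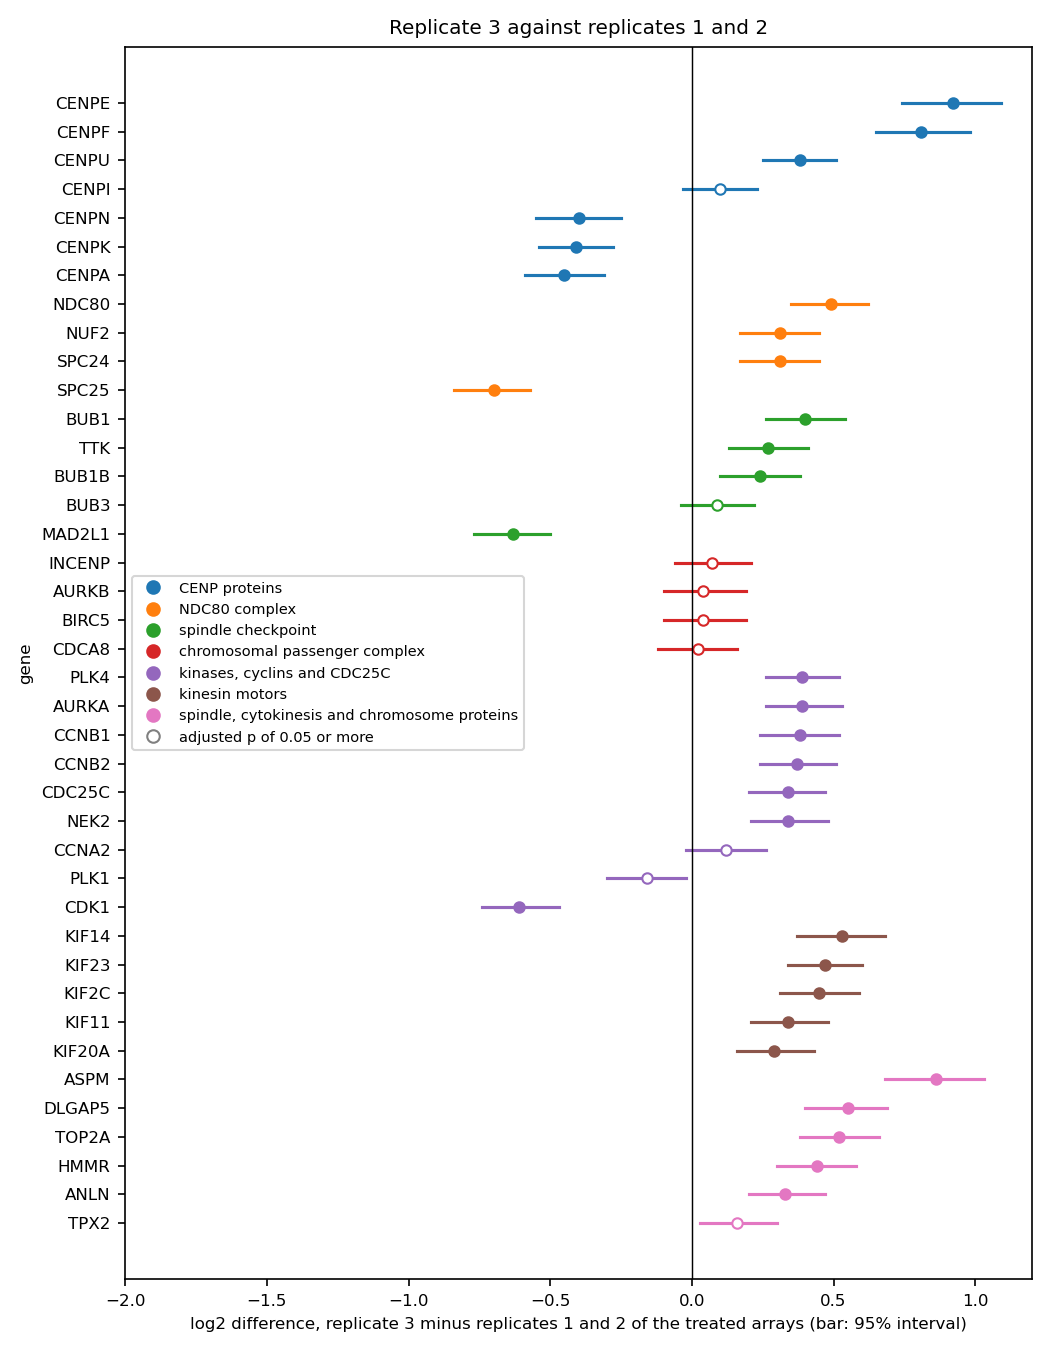
Difference between replicate 3 and replicates 1 and 2 of the treated arrays for each gene on the log2 scale, coloured by role, with bars for the 95% interval of the limma fit and open points for adjusted p of 0.05 or more. CENPE (0.92), ASPM (0.86) and CENPF (0.81) are highest and SPC25 (-0.70), MAD2L1 (-0.63) and CDK1 (-0.61) lowest, and the 4 passenger complex genes sit at 0.02 to 0.07.

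Of 5 genes of the spindle checkpoint, 3 rose and 1 fell (background 17.1% and 12.2%). BUB1, a kinase that docks checkpoint proteins at the kinetochore, was at 9.16, 9.27 and 9.03 in replicate 3, against 8.55 to 8.86 (median 8.81) in treated replicates 1 and 2 and 9.07 and 8.97 in control arrays. The difference was 0.40 ± 0.07 (SE; adjusted p = 9.21e-06, limma), and 0.12 (adjusted p = 0.0708, limma) with the mean of all its probe sets. TTK, the MPS1 kinase that starts the checkpoint signal, was at 8.87, 8.94 and 8.78 in replicate 3, against 8.39 to 8.82 (median 8.61) and 8.95 and 8.79 in control arrays, and differed by 0.27. BUB1B, which encodes the inhibitor BubR1, differed by 0.24. Without the miR-100 replicate 3 array these last 2 genes were no longer called (TTK 0.19, adjusted p = 0.112; BUB1B 0.16, adjusted p = 0.157, limma). MAD2L1, which encodes the MAD2 protein that binds CDC20, was at 11.04, 11.18 and 10.99 in replicate 3, against 11.55 to 11.83 (median 11.72) in replicates 1 and 2 and 11.50 and 11.69 in control arrays. All 3 replicate 3 arrays lay below all 8 others, and the gene fell by 0.63 on the log2 scale (SE 0.07, adjusted p = 1.93e-10, limma). A second MAD2L1 probe set, at 9.44 to 9.67 in replicate 3 and 10.07 to 10.32 in replicates 1 and 2, gave the same fall of 0.63. BUB3, an adaptor of the checkpoint, had a difference of 0.09 (adjusted p = 0.371, limma), which passed after quantile normalization (0.25) and with the mean of all probe sets (0.14).

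None of the 4 genes of the chromosomal passenger complex was called (29.3% of all genes were). AURKB, the Aurora B kinase, was at 8.54, 8.76 and 8.67 in replicate 3, against 8.44 to 8.81 (median 8.64) in treated replicates 1 and 2 and 8.58 and 8.55 in control arrays. CDCA8 (borealin) was at 9.04, 9.29 and 9.05, against 8.96 to 9.23 (median 9.12) and 9.17 and 9.08 in control arrays. BIRC5 (survivin) was at 10.12, 10.42 and 10.21, against 10.03 to 10.32 (median 10.27) and 10.25 and 10.34 in control arrays. In all of these the replicate 3 values lay around those of the other arrays. INCENP, the scaffold of the complex, was at 6.53, 6.61 and 6.52, against 6.33 to 6.57 (median 6.49) and 6.56 and 6.41 in control arrays. The 4 differences were 0.02 to 0.07 with 95% intervals between -0.12 and 0.21, which leave out the differences of CENPE, ASPM and CDK1.

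Kinases and cyclins gave 6 rises and 1 fall among 9 genes (background 17.1% and 12.2%). CDK1, the kinase that drives entry into mitosis, was at 11.47, 11.57 and 11.45 in replicate 3, against 11.96 to 12.22 (median 12.11) in treated replicates 1 and 2 and 11.95 and 12.08 in control arrays. It fell by 0.61 on the log2 scale (SE 0.07, 1.52-fold, adjusted p = 5.28e-10, limma), and its other probe sets of high level had differences of -0.47 and -0.49. Its cyclin partner CCNB1 went up instead. CCNB1 was at 9.90, 9.96 and 9.84 in replicate 3, against 9.36 to 9.68 (median 9.51) in replicates 1 and 2 and 9.85 and 9.69 in control arrays, a difference of 0.38 ± 0.07 (SE; adjusted p = 1.14e-05, limma). CCNB2, the other B-type cyclin, differed by 0.37, and CDC25C, the phosphatase that activates CDK1, by 0.34. With the mean of all probe sets neither CCNB2 (0.11) nor CDC25C (0.10) passed the test. CCNA2, the cyclin of S phase and early mitosis, was at 10.66, 10.72 and 10.60, against 10.35 to 10.69 (median 10.56) and 10.81 and 10.71 in control arrays, a difference of 0.12 that did not pass (adjusted p = 0.202, limma). After quantile normalization it did (0.21, adjusted p = 0.00919, limma).

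PLK4, the kinase of centriole copying, and AURKA, the Aurora kinase of the spindle poles, both differed by 0.39. PLK4 was at 9.16, 9.17 and 9.03 in replicate 3, against 8.66 to 8.78 (median 8.74) in treated replicates 1 and 2 and 8.91 and 8.90 in control arrays. AURKA was at 9.35, 9.56 and 9.30, against 8.92 to 9.10 (median 9.02) and 9.39 and 9.27 in control arrays. Replicate 3 lay above the other treated arrays in both genes, but above both controls only in PLK4. NEK2, a centrosome kinase, was at 9.27, 9.47 and 9.22, against 8.89 to 9.05 (median 8.98) and 9.25 and 9.16 in control arrays, a difference of 0.34. PLK1, the Polo-like kinase of mitotic entry and spindle assembly, was at 6.75, 6.79 and 6.68, against 6.72 to 7.02 (median 6.92) and 6.97 and 6.70 in control arrays. Its difference of -0.16 did not pass (adjusted p = 0.0722, limma), though it did after quantile normalization (-0.21, adjusted p = 0.0094, limma).

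All 5 kinesin motors rose (background 17.1%). KIF14, a motor of cytokinesis, was at 9.18, 9.21 and 9.18 in replicate 3, against 8.49 to 8.92 (median 8.59) in treated replicates 1 and 2 and 8.96 and 8.77 in control arrays, a difference of 0.53 ± 0.08 (SE; adjusted p = 2.59e-07, limma). KIF23, the motor of the centralspindlin complex at the midzone, was at 8.87, 8.97 and 8.81, against 8.36 to 8.50 (median 8.40) and 8.76 and 8.65 in control arrays, a difference of 0.47 ± 0.06 (SE; adjusted p = 6.86e-08, limma). For KIF23 the 3 sets of arrays did not overlap: replicate 3 was highest, control came between, and treated replicates 1 and 2 were lowest. KIF11 (Eg5), which pushes the spindle poles apart, was at 10.51, 10.50 and 10.36, against 9.98 to 10.26 (median 10.08) and 10.34 and 10.18 in control arrays, a difference of 0.34. KIF20A, a motor needed in cytokinesis, was at 8.64, 8.77 and 8.70, against 8.32 to 8.48 (median 8.40) and 8.53 and 8.57 in control arrays, a difference of 0.29. KIF2C (MCAK), which takes microtubules apart at the centromere, differed by 0.45. In all 5 motors the replicate 3 arrays lay above every other treated array.

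Among 6 spindle, cytokinesis and chromosome proteins, 5 rose and none fell (background 17.1% and 12.2%). ASPM, which organises microtubule minus ends at the poles, was at 10.59, 10.57 and 10.37 in replicate 3, against 9.35 to 9.99 (median 9.60) in treated replicates 1 and 2 and 10.31 and 9.79 in control arrays. The difference was 0.86 ± 0.09 (SE), 1.81-fold (adjusted p = 4.5e-11, limma), and 0.75 and 0.34 at its other probe sets. DLGAP5 (HURP), which stabilises microtubules near chromosomes, was at 9.45, 9.54 and 9.33, against 8.72 to 9.07 (median 8.85) and 9.36 and 9.11 in control arrays, a difference of 0.55 ± 0.07 (SE; adjusted p = 2.68e-08, limma). TOP2A, the topoisomerase that untangles sister chromatids, was at 11.24, 11.20 and 11.18, against 10.51 to 10.85 (median 10.71) and 11.07 and 10.81 in control arrays, a difference of 0.52. ASPM and TOP2A were above both control arrays in every replicate 3 array, whereas DLGAP5 in replicate 3 of both oligos lay below the control array numbered 1. HMMR, a spindle assembly factor, was at 10.12, 10.29 and 10.02, against 9.52 to 9.83 (median 9.72) and 10.01 and 10.04 in control arrays, a difference of 0.44. ANLN (anillin), which anchors the contractile ring, was at 9.28, 9.37 and 9.12, against 8.75 to 9.00 (median 8.96) and 9.14 and 9.08, a difference of 0.33. TPX2, which activates Aurora A on the spindle, was at 8.90, 8.94 and 8.83, against 8.64 to 8.79 (median 8.74) and 8.83 and 8.66. TPX2 did not overlap between replicate 3 and replicates 1 and 2, but its difference of 0.16 missed the threshold (adjusted p = 0.0537, limma). TPX2 passed in 6 of the alternatives, among them the filter at the median level (adjusted p = 0.0493, limma) and the mean of all probe sets (adjusted p = 0.0258, limma).

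**Figure D3:**
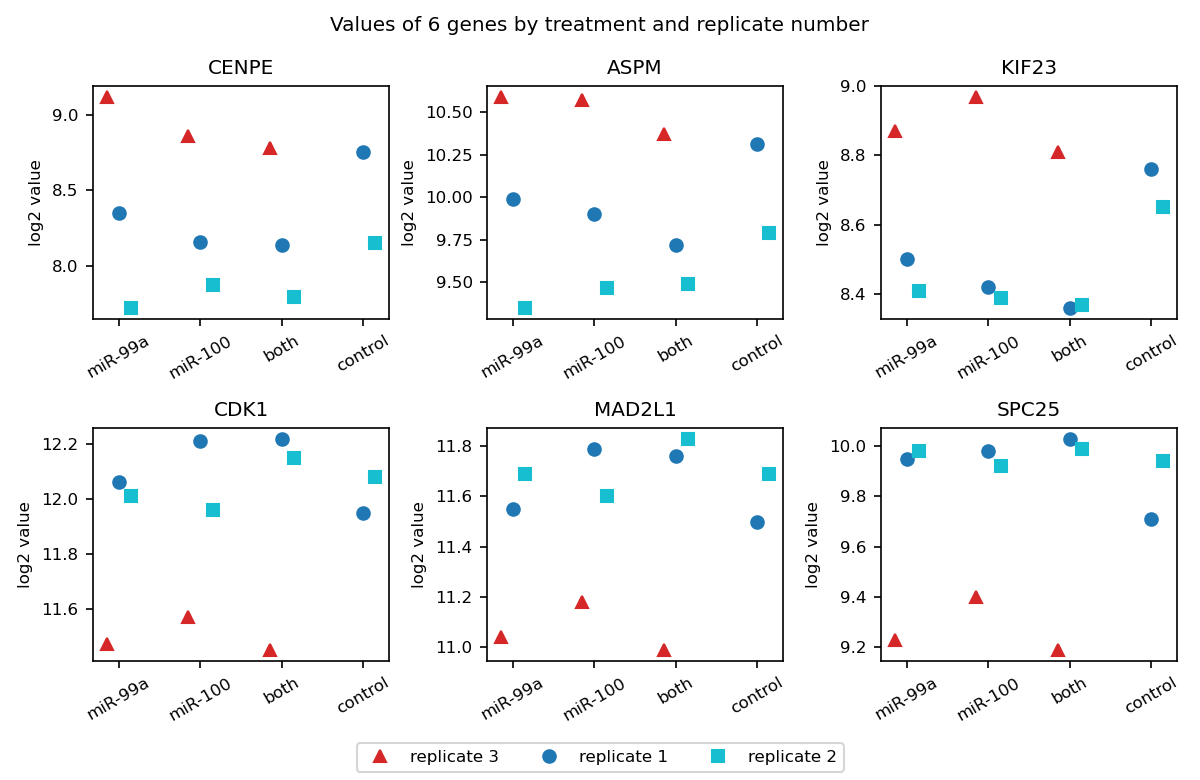
Log2 values of 6 genes in every array, by treatment (horizontal axis) and replicate number (symbol), each panel with its own vertical range. In CENPE, ASPM and KIF23 the replicate 3 arrays are the highest of their treatment, and in CDK1, MAD2L1 and SPC25 they are the lowest of all arrays.

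The difference of replicate 3 had the same sign in all 3 treatments for 35 of the 40 genes. The median over the genes was 0.27 in miR-99a, 0.42 in miR-100 and 0.24 in both oligos, each from 1 array against 2. A test of whether the difference itself varied with treatment (moderated F, limma) called none of the 40 genes and none of all genes (0.0%). The lowest adjusted p among the 40 was 0.566, and 1706 of all genes but 0 of the 40 had an unadjusted p under 0.05.

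For 15 of the 40 genes the array had 1 probe set and for 25 it had more, and 19 further probe sets of 14 genes had a mean of at least 8. In 18 of these 19 the replicate 3 difference had the sign of the chosen probe set, the exception being CENPN. Over all 49 further probe sets the sign was that of the chosen one in 35. The 14 of opposite or no sign included probe sets of AURKA, BIRC5, BUB1, CCNB2, CDC25C, CENPF, CENPI, MAD2L1, PLK4 and SPC24, all with a mean below 8. TOP2A's second probe set of high level differed by 0.48 and CENPU's others by 0.53 and 0.60.

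Between replicates 1 and 2, over all 4 groups, a few of the same genes differed in the opposite sense. In replicate 2 CENPE was lower than in replicate 1 by 0.47, ASPM by 0.45 and CENPF by 0.44 (each adjusted p = 0.000247, limma with group as a term), and KIF14 by 0.28 (adjusted p = 0.0262). These 4 of 40 genes compare with 0.187% of all genes lower and 0.399% higher, and none of the 40 was higher. CENPE was at 7.72, 7.87 and 7.79 in replicate 2 of miR-99a, miR-100 and both oligos and at 8.15 in the control, against 8.35, 8.16, 8.14 and 8.75 in replicate 1. ASPM was at 9.35, 9.47 and 9.49 and at 9.79 in the control, against 9.99, 9.90, 9.72 and 10.31 in replicate 1. Every group was lower in replicate 2 for both genes. The median over the 40 genes was -0.033, against 0.01 over all genes. With the mean of all probe sets no gene was called, the lowest adjusted p among the 40 genes being 0.0849 (limma), and KIF14 was not called without either array of miR-99a, miR-100 or control.

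Against the control arrays, with all arrays in the fit, no gene was called in any treatment, of the 40 or of all genes (0.0% in each, limma). The 3 comparisons share the same 2 control arrays. The median difference over the 40 genes was -0.076 in miR-99a, -0.063 in miR-100 and -0.089 in both oligos, against -0.006, -0.008 and -0.004 over all genes. Other genes of like level were below 0 as well. With means from 8 to 10 the medians were -0.075, -0.067 and -0.17 for the mitotic genes, against -0.040, -0.058 and -0.079 for the other genes of that level. With means from 10 to 12 they were -0.13, -0.088 and -0.094 for the mitotic genes, against -0.068, -0.079 and -0.065. Differences were below 0 in 32, 32 and 35 of the 40 genes, and after quantile normalization in 29, 19 and 26, so that the direction in miR-100 rests on the scaling. Every array lay below both controls for CCNA2 in miR-99a and for NUF2, TTK and CCNA2 in both oligos (1, 0 and 3 of the 40 genes, against 7.88%, 6.19% and 11.4% of all genes), and no gene of the 40 lay above (7.55%, 7.18% and 9.11% of all genes). Single arrays changed the size of these medians. Without replicate 1, 2 or 3 of its own group, the median was -0.042, -0.024 or -0.14 in miR-99a and -0.041, 0.044 or -0.18 in miR-100, where 28 of the 40 genes were above 0 without replicate 2. In both oligos it was -0.060, -0.077 or -0.18 without its replicate 1, 2 or 3. Without control replicate 1 the medians of miR-99a, miR-100 and both oligos were -0.033, -0.020 and -0.080. Without control replicate 2 they were -0.100, -0.092 and -0.116. An unadjusted p under 0.05 was found in 0, 0 and 1 of the 40 genes and in 198, 305 and 724 of all genes.

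Split by replicate number, the treated arrays lay on opposite sides of control. In replicate 1 the median difference of the 40 genes from the control array of that number was -0.16 in miR-99a, -0.15 in miR-100 and -0.21 in both oligos. In replicate 2 it was -0.11, -0.23 and -0.13. In replicate 3, set against the mean of both controls for want of a control of that number, it was 0.094, 0.23 and 0.052. With replicates 1 and 2 only, the medians from the fit were -0.14, -0.18 and -0.18. For the mitotic genes with means from 8 to 10 they were -0.16, -0.22 and -0.26, against -0.047, -0.15 and -0.084 for the other genes of that level. At means from 10 to 12 the medians were -0.047, -0.16 and -0.16 for the mitotic genes, against -0.019, -0.12 and -0.015. In that fit KIF23 in both oligos was called lower (-0.34 ± 0.08 SE, adjusted p = 0.0366, limma; 1.47% of all genes were called and 0.546% were lower), and none of the 40 was called in miR-99a (0.0% of all genes) or miR-100 (0.0%).

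**Figure D4:**
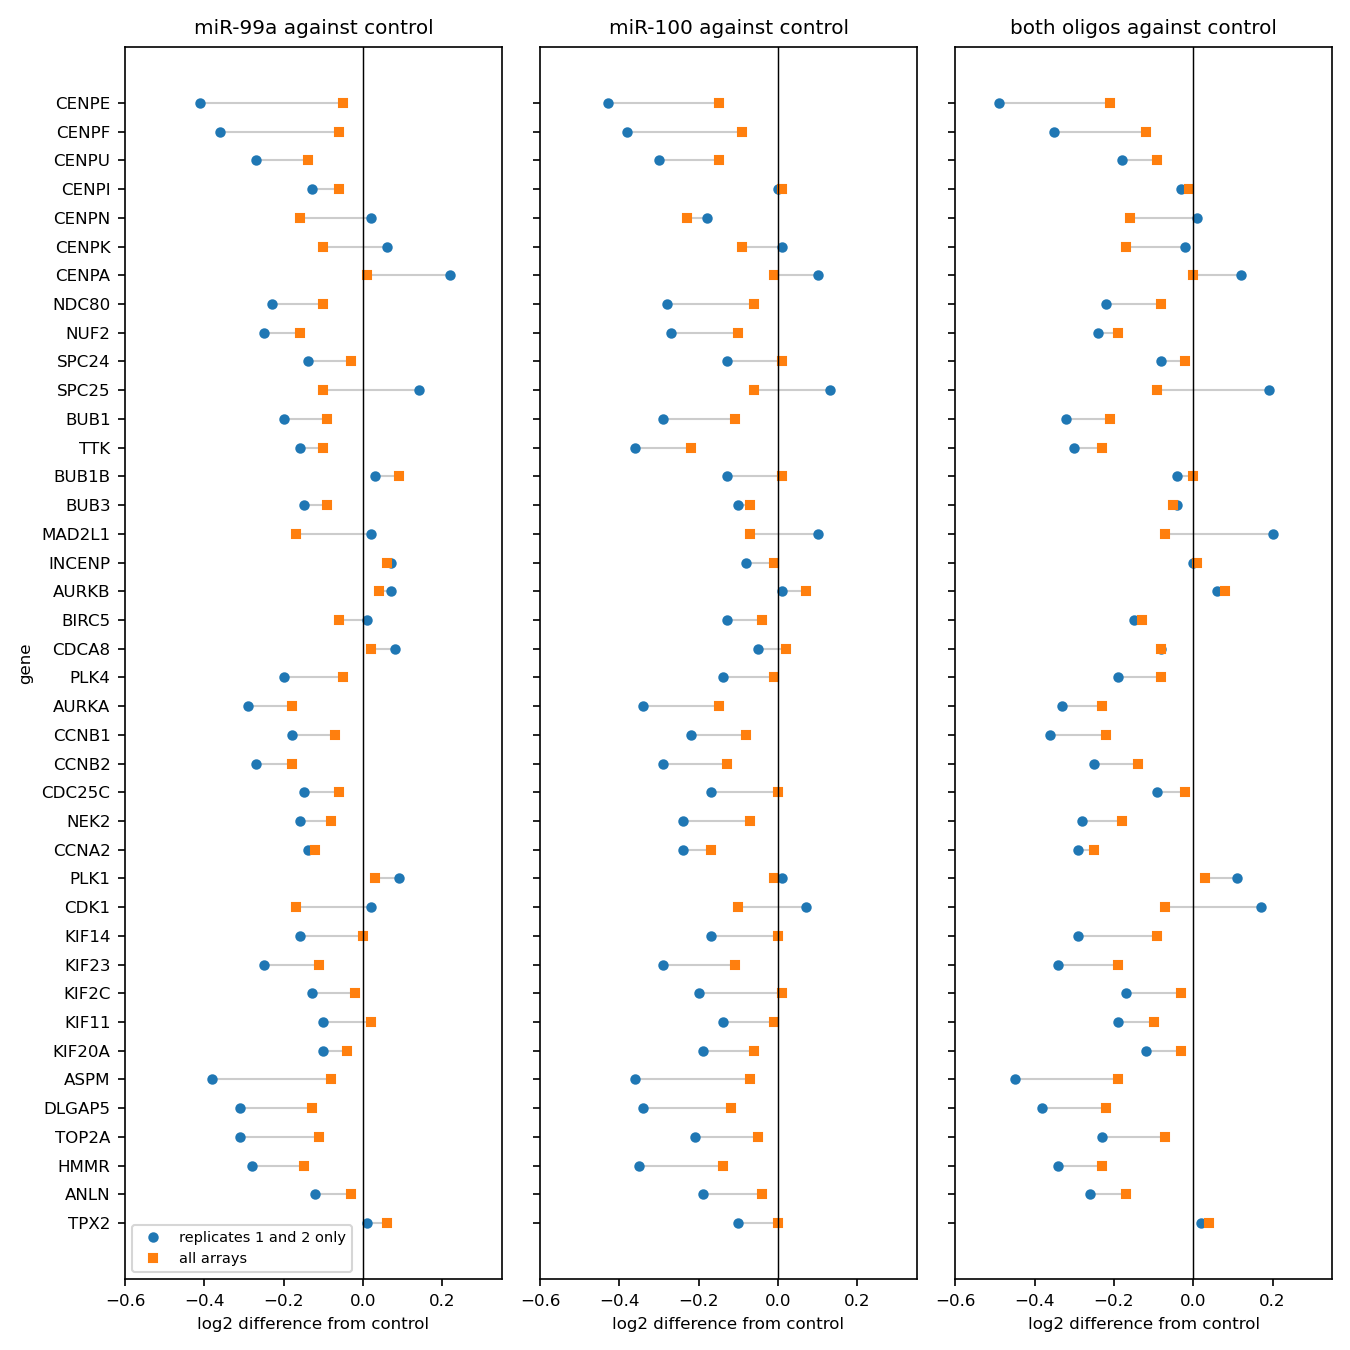
Difference of each treatment from control for each gene on the log2 scale, with all arrays in the fit (squares) and with replicates 1 and 2 only (circles). Circles lie left of 0 for most genes, with CENPE at -0.41, -0.43 and -0.49 in miR-99a, miR-100 and both oligos, and the squares lie closer to 0.

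In replicates 1 and 2, 16 of the 40 genes had all 6 treated arrays below both control arrays, and none had all 6 above them (background 10.9% lower and 5.28% higher). Of these, 12 were among the 25 mitotic genes with means from 8 to 10, against 28.5% of the other genes of that level. The 16 were the kinetochore genes CENPU, NDC80 and NUF2, the checkpoint kinase BUB1, the cyclins CCNA2, CCNB1 and CCNB2, CDC25C, the kinases PLK4, AURKA and NEK2, the motors KIF20A and KIF23, and DLGAP5, HMMR and ANLN. By treatment, 19, 22 and 23 of the 40 lay below both controls in miR-99a, miR-100 and both oligos (background 20.0%, 28.4% and 23.0%), and 4, 0 and 4 lay above (background 20.5%, 17.9% and 21.2%). The genes above were CENPA, SPC25, AURKB and CDCA8 in miR-99a and CENPA, SPC25, MAD2L1 and CDK1 in both oligos. In the replicate 3 arrays, 15 of the 40 lay above both controls and 6 below (background 18.1% and 17.2%). The shares by treatment and for replicate 3 are of all genes, not of genes of like level.

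When replicate 3 was a term of the fit, 7 genes were called lower in both oligos against control and none in either single treatment (2.24% of all genes called and 1.43% lower in both oligos, 0.0% in each single treatment). They were KIF23, HMMR, DLGAP5, AURKA, CCNB1, CENPE and BUB1, with adjusted p from 0.0251 to 0.0456 (limma). KIF23 was at 8.36, 8.37 and 8.81 in replicates 1, 2 and 3 of both oligos, at 8.42, 8.39 and 8.97 in miR-100 and at 8.50, 8.41 and 8.87 in miR-99a, against 8.76 and 8.65 in control. HMMR was at 9.74, 9.63 and 10.02 in both oligos, at 9.83, 9.52 and 10.29 in miR-100 and at 9.80, 9.70 and 10.12 in miR-99a, against 10.01 and 10.04 in control. DLGAP5 was at 8.87, 8.83 and 9.33, at 9.07, 8.72 and 9.54 and at 9.06, 8.79 and 9.45 in the same order, against 9.36 and 9.11. In each of the 3 genes the arrays numbered 1 and 2 lay below both controls in every treatment, and no array numbered 3 did.

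AURKA was at 8.95, 9.06 and 9.30 in replicates 1, 2 and 3 of both oligos, at 9.06, 8.92 and 9.56 in miR-100 and at 8.99, 9.10 and 9.35 in miR-99a, against 9.39 and 9.27 in control. CCNB1 was at 9.36, 9.46 and 9.84, at 9.68, 9.42 and 9.96 and at 9.62, 9.56 and 9.90 in the same order, against 9.85 and 9.69. BUB1 was at 8.55, 8.86 and 9.03, at 8.84, 8.63 and 9.27 and at 8.80, 8.83 and 9.16, against 9.07 and 8.97. The replicate 3 values of these genes reached or passed the lower control array in all treatments. With replicate 3 as a term the difference from control in both oligos was -0.35 for KIF23, -0.37 for HMMR, -0.40 for DLGAP5, -0.36 for AURKA, -0.34 for CCNB1, -0.52 for CENPE and -0.34 for BUB1. The corresponding differences with all arrays and no such term were -0.19, -0.23, -0.22, -0.23, -0.22, -0.21 and -0.21, none of them called. CENPE was at 8.14, 7.79 and 8.78 in both oligos, against 8.75 and 8.15 in control, so that its control arrays differed by more than that.

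Other genes of the same machinery, 81 of 83 listed ones being measured, gave 41 rises and 12 falls in replicate 3 (background 17.1% and 12.2%), with a median difference of 0.17. Of the 50 with means from 8 to 10, 30 rose and 3 fell, against 42.2% and 22.1% of genes of that level that are not among the 40. Of the 16 with means from 10 to 12, 7 rose and 8 fell, against 27.3% and 45.1%. Of 26 further kinetochore genes 11 rose and 5 fell. SKA2, a subunit of the microtubule-binding SKA complex, lay at 10.67 to 10.96 in replicate 3 and 11.40 to 11.67 in treated replicates 1 and 2 (-0.75). CENPW, an inner kinetochore histone-fold protein, had a difference of -0.60, and OIP5, CENPQ and MIS18A had -0.51, -0.50 and -0.36. KNL1, the scaffold that binds BUB1, lay at 9.50 to 9.63, against 8.88 to 9.19 (0.54).

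Of 25 further mitotic regulators 6 rose and 7 fell (background 17.1% and 12.2%), with a median of -0.024. Among other genes with means from 8 to 10, 42.2% rose and 22.1% fell, and with means from 10 to 12, 27.3% and 45.1%. CKS2, a small subunit that docks on CDK1, lay at 11.26 to 11.44 in replicate 3 and 11.95 to 12.27 in treated replicates 1 and 2 (-0.79). UBE2S, a ubiquitin-conjugating enzyme of the anaphase-promoting complex, had -0.55, CKS1B -0.51 and PTTG1 (securin) -0.49, and PBK, PKMYT1 and UBE2C had -0.38, -0.32 and -0.20. MASTL, CDCA2, MELK and ESPL1 (separase) rose by 0.40, 0.35, 0.34 and 0.28, and E2F8 and GTSE1 by 0.20 and 0.17. FOXM1 and MYBL2, transcription factors of late cell-cycle genes, had differences of -0.05 and 0.03 and were not called. Of 30 further motors, spindle and chromosome genes 24 rose and none fell (background 17.1% and 12.2%), with a median of 0.36. NCAPG and SMC2, condensin subunits, rose by 0.62 and 0.58, and KIF15, a spindle kinesin, by 0.59. The other 6 genes of this list were not called.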

How the data were processed

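The values are log2 expression values as deposited by the authors in one table of 54675 probe sets and 11 Affymetrix arrays, with RNA labelled by the maker's one-cycle kits, per the labels' protocols. The log2 scale was read from the deposited values. No summary method, normalization or genome build was found in the labels or the table, and a scaling step can move genes of high level together. Probe sets listed with 1 gene (41097) were kept, less those of the array's own controls, and the one with the highest mean stood for each of 19775 genes. RefSeq identifiers matched 41037 of the 41091 probe sets used.

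All genes were fitted with limma 3.58.1 (R 4.3.3), calls being adjusted p under 0.05. The fits were treatment against control (11 arrays), replicate 3 against replicates 1 and 2 (9 treated arrays, treatment as a term), replicate 2 against 1 (8 arrays, group as a term) and replicate 3 by treatment. The fits were also run on simulated data in which arrays varied independently, so the shared deviation of same-numbered arrays was not covered. Alternatives were quantile normalization, a filter at the median level, the mean of all probe sets, arrays left out, the replicate number as a block and replicate 3 as a term. The number of arrays limits the precision. Genes were given values by array where they had the 2 largest or the smallest replicate 3 difference of their role, were called against control in any setting, or were CDK1, CCNB1, AURKB, PLK1, KIF11 or TOP2A. The genes and lists were chosen with earlier results of these data known.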

Additional observations from a re-analysis of the deposited data

Results flagged for a closer look

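In the 4 genes of the chromosomal passenger complex the replicate 3 array lay above both other arrays of miR-100 and below both of miR-99a, that is, the groups moved opposite ways. AURKB differed by -0.10 in miR-99a, 0.18 in miR-100 and 0.04 in both oligos (replicate 3 minus the mean of replicates 1 and 2, log2), a span of 0.29. CDCA8 differed by -0.16, 0.22 and 0.00, a span of 0.37, and BIRC5 by -0.19, 0.25 and 0.07, a span of 0.44. INCENP differed by -0.03, 0.21 and 0.04, a span of 0.23. Each value rests on 1 array against 2. The difference between treatments did not pass the test in any of them (moderated F, limma, adjusted p = 0.674 for AURKB, 0.566 for CDCA8 and BIRC5 and 0.666 for INCENP).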

How the results depend on the processing

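Of the 40 genes, 30 kept their replicate 3 call, or lack of one, under every alternative run and 10 did not. The count called was 34 after quantile normalization, 29 with the mean of all probe sets and 30 to 32 without 1 array, and CENPN reversed to 0.04 with the mean of all probe sets. The median was 0.20 with the mean of all probe sets and ranged from 0.25 to 0.37 without 1 array. In replicate 2 against 1, 0 of the 40 genes and 0 of all genes were called with the mean of all probe sets. All genes called there were 116, against 38 after quantile normalization, 229 with the filter, 27 with treated arrays only and 6 to 76 without 1 array.

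Same-numbered treated arrays deviated together, with a correlation over 0.1, in 9 of 9 pairs (0.17 to 0.82). Control and treated arrays of the same number did so in 3 of 6 (-0.15 to 0.44). Of differently numbered pairs, 6 of 18 treated (-0.68 to 0.42) and 5 of 12 control and treated ones (-0.44 to 0.37) did. The main treatment fits therefore did not pair treated with control arrays by number. The differences within a number and the fit of replicate 2 against 1 did use the control numbers. With the replicate number as a block 0, 1 and 14 of the 40 genes were called lower in miR-99a, miR-100 and both oligos. Of all genes, 5, 7 and 863 were called in either direction, 1, 5 and 577 of them lower. Replicates 1 and 2 only with that block, added after seeing the data, gave 1, 9 and 11 of the 40 called lower. In that setting 47, 322 and 754 of all genes were called in either direction, 4, 306 and 359 of them lower. Without the block, both oligos had 1 of the 40 and 290 of all genes called in either direction with replicates 1 and 2 only. With replicate 3 as a term these counts were 7 and 443. With 2 control arrays and no control numbered 3, replicate 3 and treatment cannot be told apart within that number.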
